A study of Mus musculus with 2 samples.

Results

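Bradykinin receptors, the receptor kinases and arrestins that switch such receptors off, and the G protein regulator Rgs2 were followed in CD45-negative cells of mouse mammary tumours. The 8 genes (Bdkrb1, Bdkrb2, Grk2, Grk5, Grk6, Arrb1, Arrb2 and Rgs2) were taken by symbol from a table of 12707 genes, and all 8 were listed. They were chosen with the difference between the hosts already known, so every value below is a description of these libraries and none is a test. The name under which the set was proposed also speaks of catecholamine receptors, but none of the 8 genes is one.

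The Py8119 line came from a mammary tumour of the MMTV-PyMT mouse and looks mesenchymal. Its cells, wild type for Mtdh in both cases, were grown as tumours in mice carrying an Mtdh knock out (KO host) and in mice with wild-type Mtdh (WT host), 1 RNA-seq library for each host genotype. Mtdh (metadherin) promotes growth and spread of mammary tumours, and the design asks what differs in the tumour when the host lacks it. The labels give neither the strain, sex or age of the mice nor how many tumours went into a library, and the sort for live CD45-negative cells leaves host stromal cells beside the tumour cells. Because there is no replicate, no difference below can be set against the spread between tumours, and each describes this pair of libraries.

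Kinins are short peptides cut from kininogen at sites of tissue injury. The B2 receptor (Bdkrb2) is made constitutively and binds bradykinin itself, whereas the B1 receptor (Bdkrb1) is usually scarce, is induced by inflammatory signals and binds the carboxypeptidase products of kinins. Both act mainly through Gq, phospholipase C and calcium. G protein-coupled receptor kinases (GRKs) phosphorylate active receptors, beta-arrestins (Arrb1, Arrb2) then bind and uncouple them and lead them to clathrin, and RGS proteins such as Rgs2, which acts on Gq, speed up the shut-off of the G protein.

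The 2 receptor genes are neighbours on chromosome 12 (mm39 coordinates of the deposited table, plus strand). Bdkrb2 (ENSMUSG00000021070) spans 105529485 to 105561497 and Bdkrb1 (ENSMUSG00000041347) 105569344 to 105571688, with 7847 bases between them. They are related in sequence, so it matters whether reads of one could be counted for the other. The most similar 60-base stretch of their coding sequences is printed here from the GENCODE M21 transcript models (bases 379 to 438 of the Bdkrb1 and 421 to 480 of the Bdkrb2 coding sequence, 5′ to 3′), with capitals at the bases that differ.
Bdkrb1: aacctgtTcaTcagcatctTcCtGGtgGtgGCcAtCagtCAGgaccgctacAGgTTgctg
Bdkrb2: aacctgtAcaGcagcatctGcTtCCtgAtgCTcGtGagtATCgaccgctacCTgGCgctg
Even there 18 of 60 bases differ, and the longest run that the coding sequences share is 13 bases. Of the 50-base words in the GENCODE M21 transcripts of Bdkrb1, Bdkrb2 and Rgs2, 0 occur in a transcript of another gene, on either strand. Among the other 5 genes the share was highest for Grk5, at 1.86%. The closest paralogs among them were Grk5 and Grk6, with 55 of 60 bases alike in their most similar stretch, and Arrb1 and Arrb2 had 51. Recovered reads of all 8 genes were whole numbers within 0.1 read in both libraries.

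Promoter sequences from RefSeq (GRCm38.p6) were at hand for 4 of the 8 genes, namely Bdkrb2, Grk5, Grk6 and Rgs2. The 250 bases before the start are shown for Bdkrb2, as the constitutive receptor, and for Rgs2, a gene known to respond to cAMP, 5′ to 3′ on the strand of the gene. Capitals mark the cAMP response element (CRE) half-site TGACG in Rgs2 and, in Bdkrb2, the full element with 1 base left free, TGACNTCA, each searched on both strands. The second motif was chosen after the sequence had been read.
Bdkrb2 (chr12:105562922-105563171, plus strand): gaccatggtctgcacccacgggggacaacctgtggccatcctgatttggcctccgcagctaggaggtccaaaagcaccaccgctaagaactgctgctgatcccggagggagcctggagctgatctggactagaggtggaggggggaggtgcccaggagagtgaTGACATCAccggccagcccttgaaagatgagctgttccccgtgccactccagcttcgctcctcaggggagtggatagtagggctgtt
Rgs2 (chr1:144004150-144004399, minus strand): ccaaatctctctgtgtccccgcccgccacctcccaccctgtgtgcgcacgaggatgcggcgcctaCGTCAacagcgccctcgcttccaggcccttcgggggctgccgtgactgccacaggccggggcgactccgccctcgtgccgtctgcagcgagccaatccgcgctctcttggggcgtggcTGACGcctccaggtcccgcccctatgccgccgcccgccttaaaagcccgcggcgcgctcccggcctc
The Rgs2 window holds 2 half-sites, 0 matches to TGACNTCA and 72.4% G and C. The Bdkrb2 window holds 0 half-sites, 1 match to TGACNTCA and 60.8% G and C. Half-sites occur in 17.8% of all 32851 promoter windows of the same length, and TGACNTCA in 7.49%. The promoters of Grk5 and Grk6 hold neither motif in these windows. A match describes the letters and is no evidence that a factor binds.

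Of the 8 genes, 1 was more than 2-fold lower in the KO-host library (Bdkrb1), 1 was more than 2-fold higher (Grk2) and 6 lay between. The ratios are of RPM (reads per 1000000 reads of the library), recovered from the deposited log2 values of FPKM + 1. Each comes with a 95% Clopper-Pearson interval, conditional on the sum of both libraries, that covers counting error at most. It can be too narrow because PCR copies count as separate reads. Over all 10647 genes with 100 reads or more and reads in both libraries, 8.39% were 2-fold higher in the KO-host library and 11.3% were 2-fold lower. In all, 10813 genes had 100 reads or more, and those at under 0.5 read in 1 library are left out of these shares. On the deposited scale, where a difference of at least 1 is counted if the mean reaches 1, 5 of the 8 genes could be counted, and Grk2 and Bdkrb1 again passed, 1 in each direction. On that scale 2.31% of 6057 genes were higher and 2.64% were lower. Since the genes were chosen on this contrast, nothing is read from their counts against these shares. The median log2 ratio of the 8 genes was -0.23, against -0.06 over the 10647 genes.

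**Figure D1:**
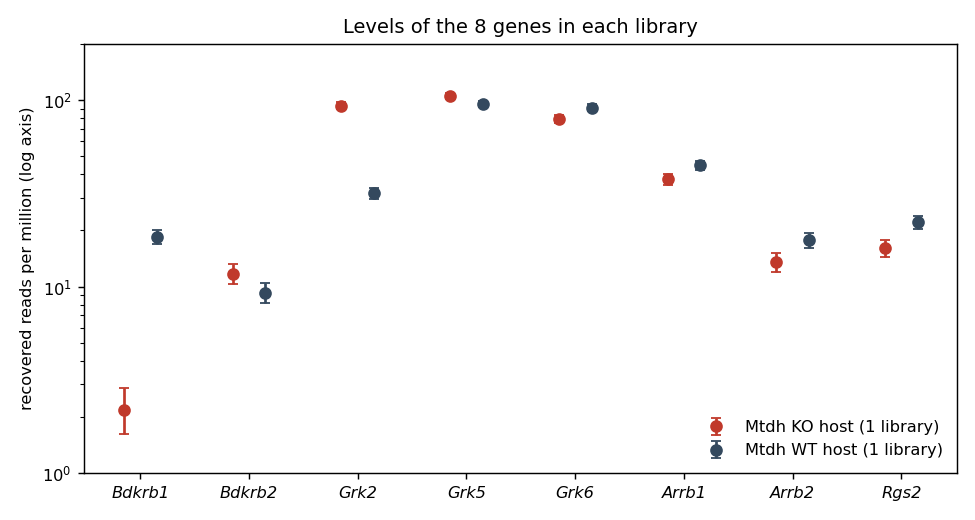
Recovered RPM (log axis) of the 8 genes in the KO-host library (red, left) and the WT-host library (dark, right), 1 library each, with 95% Poisson counting intervals. Bdkrb1 sits at 2.18 RPM in the KO-host library, against 18.4 RPM in the WT-host library, and Grk2 at 93.1 against 31.6 RPM.

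Bdkrb1, the inducible B1 receptor, was the gene with the lowest ratio of the set. It had 51 reads in the KO-host library, against 480 reads in the WT-host library. Its deposited log2 value was 0.95 in the KO-host library and 3.15 in the WT-host library, a difference of -2.20. In RPM it was 8.44-fold lower in the KO-host library (95% counting interval 6.32 to 11.5). Of the 10647 genes, 183 had a ratio as low or lower (1.72%). Genes at 0 in the KO-host library, such as Rgs14, get no ratio and are left out of this share and those that follow. Ratios spread more widely among genes with few reads: of the 4034 genes with 100 to 1000 reads over both libraries, 17.5% were 2-fold higher, 23.4% were 2-fold lower and 4.49% had a ratio as low as that of Bdkrb1, which has 531 reads.

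Bdkrb2, the constitutive B2 receptor, did not move with its neighbour. It had 273 reads in the KO-host library and 241 in the WT-host library, or 11.7 and 9.24 RPM. The ratio was 1.26 (95% counting interval 1.06 to 1.51), a log2 ratio of 0.34. That is smaller than the median size of the log2 ratio among genes with 100 to 1000 reads, which was 0.79. On the deposited scale, where its long span keeps the gene near 0, the difference was 0.08.

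The balance between the 2 receptors does not depend on how the libraries are scaled. In the KO-host library Bdkrb1 took 15.7% of the reads of the pair (95% exact interval 11.95 to 20.2), and in the WT-host library 66.6% (63.0 to 70.0). Per kilobase of exon the B1 share was 33.1% in the KO-host library and 84.0% in the WT-host library. The receptor that gave most of the pair's RNA thus differed between the libraries, with B2 ahead in the KO-host library and B1 ahead in the WT-host library. Both receptors together came to 13.9 RPM in the KO-host library and 27.7 RPM in the WT-host library, a ratio of 0.501 (0.438 to 0.572).

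**Figure D2:**
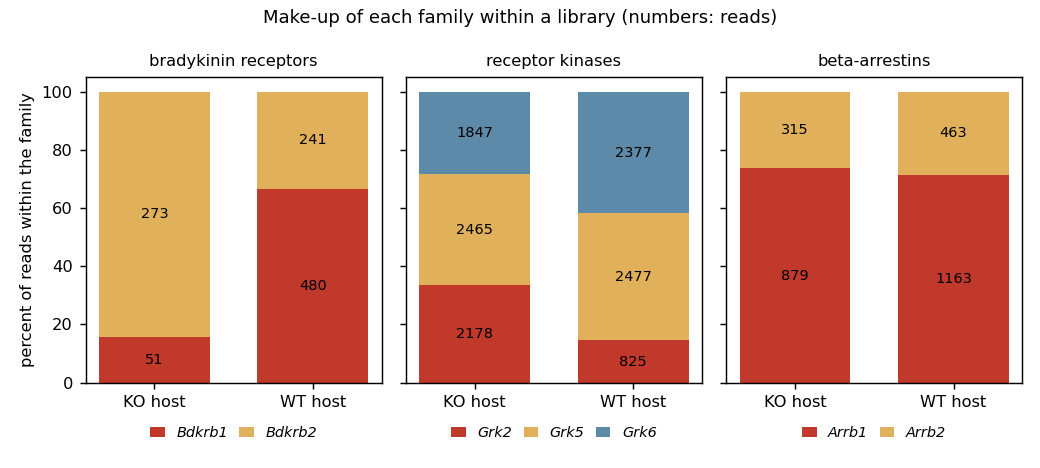
Share of reads that each gene takes within its family, for the KO-host library (left bar) and the WT-host library (right bar) in each panel; the numbers in the bars are reads. Bdkrb1 takes 15.7% of the receptor pair in the KO-host library and 66.6% in the WT-host library, Grk2 takes 33.6% and 14.5% of the 3 kinases, and the beta-arrestins divide alike.

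Most of the fibroblast, pericyte and smooth muscle markers that could be compared were 2-fold lower in the same library as Bdkrb1. Of 9 fibroblast markers 8 were listed and 6 had 100 reads or more with reads in both libraries; 4 of these were 2-fold lower and 0 were 2-fold higher in the KO-host library. The listed ones summed to 824.9 RPM in the KO-host library and 2084 RPM in the WT-host library. Col3a1 gave 473.7 and 1136 RPM of these sums, and Col1a1 gave 88.1 and 618.0 RPM. The other 2-fold lower markers were Dcn and Dpt. Pdgfra and Col1a2, chosen after their values were seen, lay between the 2-fold bounds, with ratios of 0.966 and 0.652. Pdgfra had 216.2 RPM in the KO-host library and 223.8 RPM in the WT-host library. Of 10 pericyte and smooth muscle markers 5 were listed, 2 of the 3 that could be compared were 2-fold lower, and the listed ones summed to 88.8 RPM in the KO-host library and 384.3 RPM in the WT-host library. Most of these sums came from Pdgfrb, with 72.3 and 353.1 RPM, and without it they were 16.5 and 31.2 RPM. Tagln, the third that could be compared, had a ratio of 0.981. No listed marker of either list was at 0, and Lum, Rgs5, Myh11, Cnn1, Des and Kcnj8 were not analysed here. The part of these cells in the Bdkrb1 value was not tested, and fewer cells of a type cannot be told apart from less RNA per cell in bulk samples. Nor can it be told whether the RNA of these markers came from host cells or from the tumour cells, which look mesenchymal. The 6 mesenchymal tumour cell markers, led by Vim and Fn1, lay between the 2-fold bounds, with sums of 7686 RPM in the KO-host library and 8643 RPM in the WT-host library.

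Grk2, the widely expressed kinase that is recruited to the membrane by free G protein beta-gamma subunits, was the gene with the highest ratio of the set (ENSMUSG00000024858, chromosome 19, 4336029 to 4356251, minus strand). It had 2178 reads in the KO-host library and 825 in the WT-host library. Its deposited log2 value was 2.49 in the KO-host library and 1.36 in the WT-host library, a difference of 1.13. In RPM the ratio was 2.94 (95% counting interval 2.72 to 3.19). Of the 10647 genes, 424 had a ratio as high or higher (3.98%). Genes at 0 in the WT-host library, such as Adra2a, get no ratio and are left out of this share and those that follow. Among the 5476 genes with 1000 to 10000 reads, where ratios spread less, 3.03% were 2-fold higher, 4.58% were 2-fold lower and 0.785% (43 genes) had a ratio as high as that of Grk2. Mammary epithelial markers were on the same side: all 4 that were listed of 6 had ratios above 1, with 1 of them 2-fold higher, and they summed to 288.3 RPM in the KO-host library and 192.6 RPM in the WT-host library. Of the 6 macrophage and monocyte markers that could be compared, 5 had ratios above 1; 2 of these passed 2-fold upwards and 0 passed it downwards. Mpeg1, a pore-forming protein of macrophages, had 952 reads in the KO-host library and 378 in the WT-host library (2.81-fold), and Cd68, a lysosomal protein of macrophages, had 70 and 33 (2.37-fold). Mrc1 went the other way, with 67 reads in the KO-host library and 146 in the WT-host library (ratio 0.512). Adgre1, Csf1r and Lyz2, chosen after their values were seen, were close to level, with ratios of 1.09, 1.10 and 1.10. The part of both cell types in the Grk2 value was not tested.

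The other 2 kinases stayed close to level. Grk5 (ENSMUSG00000003228, chromosome 19, 60878187 to 61084407, plus strand) is held at the membrane by phospholipids and does not need beta-gamma subunits. It had 2465 reads in the KO-host library and 2477 in the WT-host library, a ratio of 1.11 (1.05 to 1.17). Its span overlaps that of Zfp950 on the minus strand by 42129 bases, and with strand handling not given in the sources used here, reads in the overlap may come from either gene. Grk6 (ENSMUSG00000074886, chromosome 13, 55592885 to 55608741, plus strand), a palmitoylated relative of Grk5, had 1847 reads in the KO-host library and 2377 in the WT-host library, a ratio of 0.866 (0.815 to 0.921). Both log2 ratios, 0.15 and -0.21, are smaller in size than the median of 0.32 among genes with 1000 to 10000 reads.

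Within the 3 kinases, Grk2 took 33.6% of the reads in the KO-host library (95% exact interval 32.4 to 34.7) and 14.5% in the WT-host library (13.6 to 15.5). Grk6 took 28.5% in the KO-host library and 41.9% in the WT-host library, and Grk5 took 38.0% and 43.6%. Per kilobase of exon, Grk2 was the leading kinase in the KO-host library with 38.1%, whereas Grk6 led in the WT-host library with 51.4%. The 3 kinases together came to 277.6 RPM in the KO-host library and 217.8 RPM in the WT-host library, a ratio of 1.27 (1.23 to 1.32).

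Both beta-arrestins were slightly lower in the KO-host library. Arrb1 (ENSMUSG00000018909, chromosome 7, 99184673 to 99255979, plus strand) had 879 reads in the KO-host library and 1163 in the WT-host library, a ratio of 0.843 (0.771 to 0.921). Arrb2 (ENSMUSG00000060216, chromosome 11, 70323461 to 70331655, plus strand) had 315 and 463 reads in the KO-host and WT-host libraries, a ratio of 0.759 (0.655 to 0.877). Their log2 ratios of -0.25 and -0.40 are smaller in size than the medians of 0.32 and 0.79 for genes of their read range. The share of Arrb1 in the pair was 73.6% (71.0 to 76.1) in the KO-host library and 71.5% (69.3 to 73.7) in the WT-host library, and these intervals overlap. Grk2, which acts before the arrestins on a receptor, had a ratio above 1. Since both arrestin ratios are smaller in size than that of the median gene in their read range, no difference in direction is read from them.

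Rgs2 (ENSMUSG00000026360, chromosome 1, 143875076 to 143879900, minus strand) had 374 reads in the KO-host library and 576 in the WT-host library. The deposited log2 values were 2.11 and 2.48 in the KO-host and WT-host libraries. The ratio in RPM was 0.724 (0.634 to 0.826), a log2 ratio of -0.47, again smaller in size than the 0.79 of its read range. For all 8 genes the counting interval of the ratio left out 1, but for the 6 genes between the 2-fold bounds the ratio was smaller in size than that of the median gene in its read range.

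**Figure D3:**
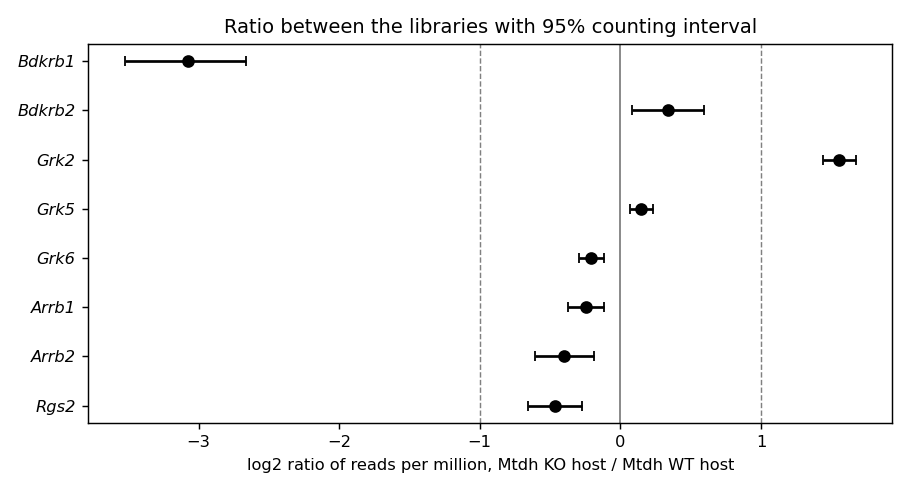
Log2 ratio of RPM, KO host over WT host, for the 8 genes with 95% exact conditional binomial intervals; dashed lines mark 2-fold. Bdkrb1 lies at -3.08 and Grk2 at 1.56, and the other 6 genes lie between -0.47 and 0.34.

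**Figure D4:**
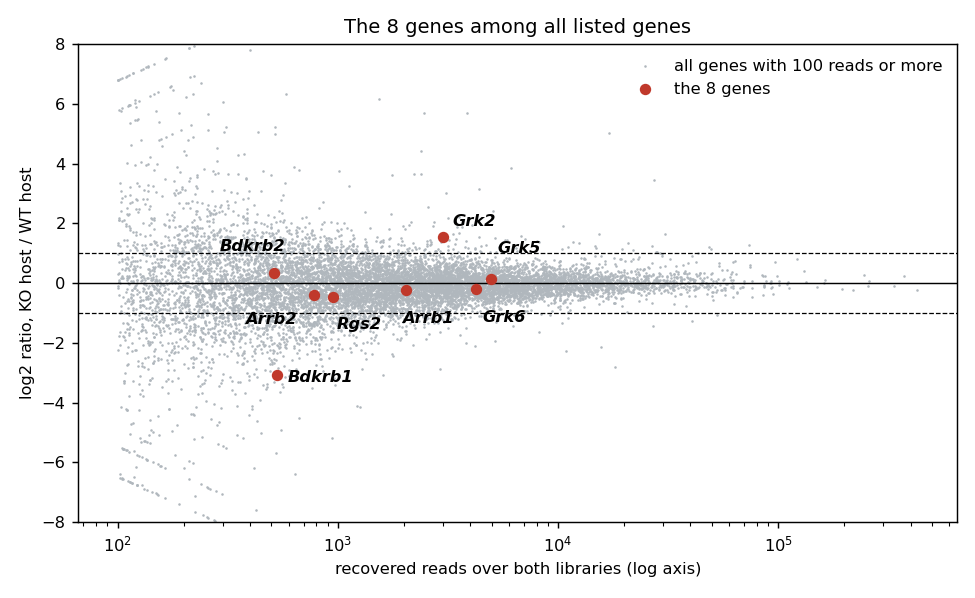
Log2 ratio, KO host over WT host, against recovered reads over both libraries (log axis) for genes with 100 reads or more; red points are the 8 genes, dashed lines mark 2-fold, and 14 genes beyond 8 on either side are not drawn. Ratios of all genes fan out below 1000 reads, where Bdkrb1, Bdkrb2, Arrb2 and Rgs2 lie.

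Levels of different genes can be set side by side only per length of transcript, which was done with exon lengths of GENCODE M21 and is approximate because the authors' annotation release is not known. In the KO-host library the order was Grk2 (20.8 RPM per kilobase of exon), Grk6 (18.8), Grk5 (14.9), Arrb2 (4.74), Rgs2 (4.41), Arrb1 (3.36), Bdkrb2 (3.08) and Bdkrb1 (1.52). In the WT-host library it was Grk6 (21.7), Grk5 (13.5), Bdkrb1 (12.8), Grk2 (7.07), Arrb2 (6.24), Rgs2 (6.09), Arrb1 (3.99) and Bdkrb2 (2.44). Counting intervals of neighbours in the order overlapped for Arrb2 with Rgs2 in both libraries. They also overlapped for Arrb1 with Bdkrb2 in the KO-host library, and for Grk5 with Bdkrb1 and Grk2 with Arrb2 in the WT-host library. Bdkrb1 stood at percentile 27.95 of all listed genes in the KO-host library and at 73.3 in the WT-host library, and Grk2 at 83.5 and 58.3.

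Other genes of kinin supply were followed with a list of 23 genes that make or break down kinins, of which 14 were listed and 10 could be compared. In the KO-host library 1 was 2-fold higher, 2 were 2-fold lower and 7 lay between, and the median log2 ratio was -0.43, against -0.06 over all genes. That median was -0.25 with no minimum of reads and -0.15 on the deposited scale. Thop1, a metallopeptidase that cleaves bradykinin, had 301 reads in the KO-host library and 926 in the WT-host library, 2.76-fold lower. Prcp, a lysosomal carboxypeptidase, was 2.09-fold lower, with 585 and 1363 reads. Anpep (aminopeptidase N) had 187 reads in the KO-host library and 39 in the WT-host library, a ratio of 5.35 (3.77 to 7.76). Ace, the converting enzyme that inactivates bradykinin, had 1130 and 746 reads, a ratio of 1.69, and was chosen after its values were seen. Kininogen (Kng1, Kng2) was not analysed here.

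Downstream of the receptors most genes lay within 2-fold, as did 80.3% of all 10647 genes. Of 18 G protein subunits compared, 1 was 2-fold higher, 1 was 2-fold lower and 16 lay between, with a median log2 ratio of -0.02. Gnb5, the beta subunit that pairs with some RGS proteins, had 306 reads in the KO-host library and 42 in the WT-host library, and Gnaz, an inhibitory alpha subunit, had 40 and 170. The Gq subunit Gnaq, chosen after its values were seen, had 2496 reads in the KO-host library and 2754 in the WT-host library, a ratio of 1.01. Of 13 genes of the phospholipase C and calcium branch, 1 was higher, 1 was lower and 11 lay between, with a median of 0.18 that was 0.36 with no minimum of reads and 0.02 on the deposited scale. Rcan1, a calcineurin inhibitor that is itself a target of calcium and NFAT signalling, had 644 reads in the KO-host library and 273 in the WT-host library (2.63-fold, 2.28 to 3.04). Prkcd, a protein kinase C isoform, was 2.14-fold lower, with 434 and 1034 reads, and Nfatc1, a calcium-responsive transcription factor, had 3200 and 1952 reads (1.83-fold).

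In the cAMP branch, 0 of 17 genes were 2-fold higher, 1 was 2-fold lower and 16 lay between, with a median of -0.21 that was -0.07 on the deposited scale. Log2 ratios were below 0 for 14 of the 17, and for 54.4% of all genes. Pde4d, a cAMP phosphodiesterase, had 29 reads in the KO-host library and 228 in the WT-host library, while Rapgef3, a cAMP-activated exchange factor, had 1906 and 1433. Among 24 genes of clathrin and AP-2 endocytosis, which carry arrestin-bound receptors into the cell, 0 were higher, 1 was lower and 23 lay between, with a median of 0.03. Git1, a scaffold that binds GRKs, was 2.26-fold lower, with 786 reads in the KO-host library and 1980 in the WT-host library.

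Relatives of the kinases, arrestins and Rgs2 went in both directions. In the list of receptor kinases, arrestins and alpha-arrestins, 12 of 16 genes were compared; 3 were 2-fold higher, 1 was 2-fold lower and 8 lay between, with a median of -0.03. Besides Grk2, the alpha-arrestins Arrdc1 (253 reads in the KO-host library and 73 in the WT-host library) and Arrdc2 (110 and 52) were higher. Txnip, an alpha-arrestin that binds thioredoxin and restrains glucose uptake, was 2.42-fold lower, with 593 and 1599 reads. Of 12 RGS and axin genes compared, 2 were higher, 2 were lower and 8 lay between, with a median of -0.37 that was -0.07 on the deposited scale. Rgs16, a relative of Rgs2 that acts on Gi and Gq, was 3.26-fold lower (95% counting interval 2.90 to 3.65), with 383 reads in the KO-host library and 1390 in the WT-host library. Rgs1 had 34 and 79 reads, Rgs20 had 611 and 304, and Axin1, a scaffold of the Wnt pathway with an RGS domain, had 917 and 448. Rgs14 was listed at 0 in the KO-host library and had 125 reads in the WT-host library, and no ratio is given for it.

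Receptors for other ligands were mostly sparse. A list of 26 other receptors was drawn up for coupling to Gq, but not all of them couple to it. Of the 26, 14 were listed and 9 could be compared, with 1 higher, 2 lower and 6 between. Their median was -0.02, or -0.27 with no minimum of reads. The prostaglandin F receptor Ptgfr had 81 reads in the KO-host library and 428 in the WT-host library, and the nucleotide receptor P2ry2 had 3 and 209. Ptger1, which had fractional reads and is therefore uncertain, had 236.3 reads in the KO-host library and 2.5 in the WT-host library. Oxtr was listed at 0 in the WT-host library and Lpar4 at 0 in the KO-host library. From a list of 20 catecholamine receptors and enzymes, 7 were listed and 3 could be compared, and 0 of these passed 2-fold in either direction. The alpha-1B receptor Adra1b had 122 reads in the KO-host library and 117 in the WT-host library. Adra2a had 124 reads in the KO-host library and was listed at 0 in the WT-host library, whereas Adra1d was listed at 0 in the KO-host library and had 129 reads in the WT-host library. Maoa, a monoamine oxidase that breaks down catecholamines, had 3247 reads in the KO-host library and 3402 in the WT-host library, a ratio of 1.06.

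**Figure D5:**
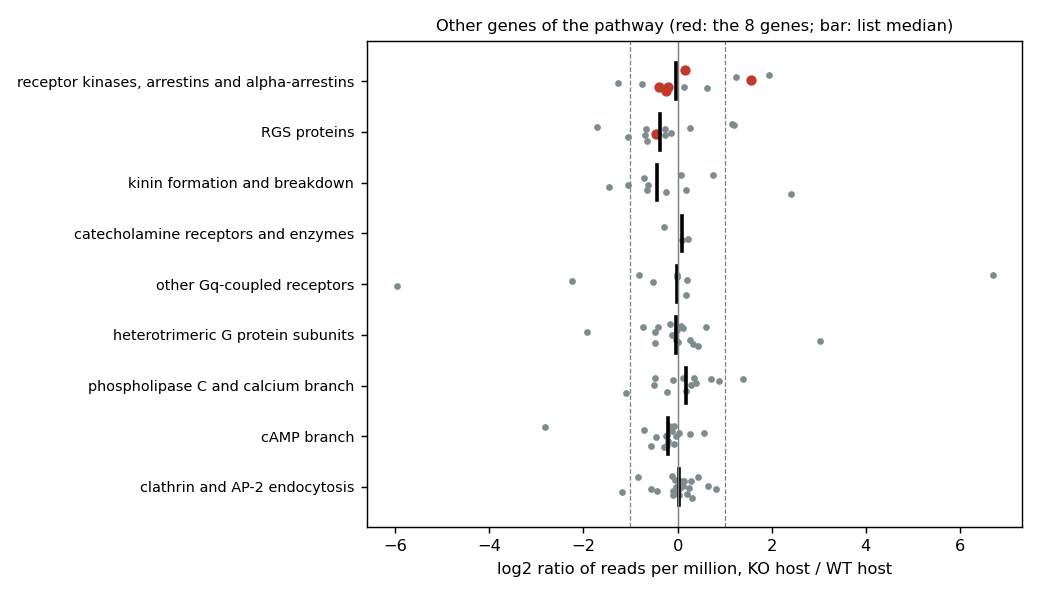
Log2 ratio of RPM, KO host over WT host, for the genes of each pathway list with 100 reads or more and reads in both libraries; red points are among the 8 genes, black bars are list medians and dashed lines mark 2-fold. Most points of every list lie between the 2-fold lines.

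For the libraries as a whole, 23381849 reads were recovered for the KO host and 26069375 for the WT host. Mtdh had 23130 reads in the KO-host library and 28376 in the WT-host library, which says little about the host label because the injected cells carry the gene. Ptprc, which encodes CD45, had 64 and 46 reads in the KO-host and WT-host libraries, and the 8 listed of 9 leukocyte markers summed to 23.4 and 21.6 RPM. The 9 macrophage and monocyte markers summed to 213.3 RPM in the KO-host library and 171.5 RPM in the WT-host library, of which Lyz2 gave 148.4 and 134.4 RPM. The 5 listed of 9 endothelial markers summed to 15.3 RPM in the KO-host library and 22.3 RPM in the WT-host library, but did not move together. Of the 4 that could be compared, 1 was 2-fold higher and 2 were 2-fold lower. Cdh5 (VE-cadherin) had 146 reads in the KO-host library and 1 in the WT-host library, whereas Plvap had 58 and 348.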

How the data were processed

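Live CD45-negative cells were sorted from dissociated Py8119 tumours, ribosomal RNA was removed and PrepX libraries were built, per the labels' protocols. STAR 2.7.8a, Partek and mm39 are named in the submitters' processing notes; the sources used here give neither their roles nor strand handling or the annotation release. The authors deposited 1 table of log2 values of FPKM + 1 for 12707 genes, with 1 column per library. The deposited FPKM values use the genomic span of a gene as its length (in 100% of rows the length is stop minus start) and sum, times length, to 1000000 per library.

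Here, FPKM times length gave RPM, and whole reads were recovered from the step between low values (Python 3.11.15, numpy, pandas, scipy); under 1000 reads, 83.4% (KO host) and 84.9% (WT host) of values were whole within 0.1. The step search was tested on simulated data. A gene at under 0.5 read in a library gets no ratio; ratios use genes with 100 reads or more over both. Without molecular identifiers, PCR copies count as separate reads, so the intervals can be too narrow even for counting error. They do not cover the spread between tumours. With 1 library per group no p-value was computed. The genes, lists and read ranges were chosen with earlier results of these data known. From each list the text names genes past 2-fold and the 3 with the largest ratio in size; others are said to be chosen after their values were seen. Alternatives changed the number added before the log, the filters, the size of the ratio and the scaling.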

Additional observations from a re-analysis of the deposited data

How the results depend on the processing

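All 8 genes kept their direction under the 4 alternatives of the deposited scale and the 3 scalings of reads; the difference of Bdkrb1 ranged from -2.95 to -1.12 and that of Grk2 from 0.55 to 1.499. On the deposited scale, the count of members higher by 1 or more, 1 as reported, was 0 with 5 added and 0 with a mean log2 of 3 or more, and the count lower was 0 with that mean. In reads, the count of members 2-fold lower was 0 with a minimum of 1000 reads, because Bdkrb1 has fewer. Over all genes on the deposited scale, 140 higher and 160 lower became 285 and 332 with 0.1 added, 41 and 30 with 5 added, and 39 and 28 with a mean log2 of 3 or more. In reads, 893 higher and 1204 lower became 188 and 259 with a minimum of 1000 reads, and 1670 and 2212 at 1.5-fold. Scaling shifted log2 ratios by at most 0.05. The 51 reads of Bdkrb1 in the KO-host library leave its fold with a counting interval of 6.32 to 11.5. No paired analysis was possible because each host genotype has 1 library, and no library could be left out.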

Other observations

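Genes beside Bdkrb1 and Grk2 on the chromosome were looked up after the values of both were seen. Atg2b, 10707 bases beyond Bdkrb1, had 2755 reads in the KO-host library and 3514 in the WT-host library (ratio 0.874). Gskip, an anchor of the cAMP-dependent kinase that lies 79400 bases beyond Bdkrb1, had 165.8 reads in the KO-host library and 560 in the WT-host library (ratio 0.330, 95% counting interval 0.276 to 0.394). The 3 nearest listed genes at this locus that were not Bdkrb1 thus lay at ratios of 1.26 (Bdkrb2), 0.874 and 0.330. On chromosome 19, Ankrd13d, 2863 bases from Grk2, was listed at 0 in the KO-host library and had 146 reads in the WT-host library, while Kdm2a on the other side had 4187 and 5816 reads (ratio 0.803).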
